A study of Mus musculus with 6 samples.

Results

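The pluripotency-associated factors described here are 10 genes named for their roles in the early mouse embryo and in embryonic stem cells: Pou5f1, Nanog, Lin28a, Lin28b, Sall4, Utf1, Fgf4, Tdgf1, Dppa4 and Zfp42. They were found by the gene name that the scanner files give each probe, with Lin28a written there as Lin28. Of the 10 genes, 9 had at least 1 probe, and together they had 13 of the 41174 probes, which stand for 27971 genes. No probe of the files used here carried the name Fgf4. RNA came from epithelial sheets of the mouse forestomach, the squamous-lined upper part of the stomach, and was compared on 6 two-colour Agilent arrays. The 3 mutant arrays held RNA of K5-CreER;Rosa26Sox2/Sox2 mice and the 3 control arrays RNA of K5-CreER mice, which the labels call biological replicates. Both groups thus carried K5-CreER, a tamoxifen-activated Cre recombinase under the keratin 5 promoter, which is active in basal cells, and both received 2 doses of tamoxifen at 7 weeks of age. The labels give an age of 12 weeks and a mixture of 129/Sv and C57/BL6 for all mice, and the mutants differed by a Sox2 transgene on both copies of Rosa26.

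Pluripotency is the ability of a cell to form every tissue of the body, and in the mouse it rests on a network of transcription factors around POU5F1 (OCT4), SOX2 and NANOG. SOX2 and POU5F1 bind together at regulatory elements of other members of the network, among them Nanog, Fgf4, Utf1 and Pou5f1 itself. In the adult, Sox2 marks progenitor cells of the stratified foregut epithelium, where Pou5f1 and Nanog are not known to be part of the normal program. The comparison asks whether genes that accompany Sox2 in pluripotent cells were measured, and differed, in the forestomach of mice that carried a Sox2 transgene and a Cre recombinase meant to switch it on.

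Of these genes, Lin28b, an RNA-binding protein that blocks maturation of the let-7 microRNAs, was higher in mutants, by 1.79-fold in the ratio of sample to reference RNA (log2 difference 0.84, 95% interval 0.49 to 1.19, n = 3 each). It was the single member of the 6 tested that passed the threshold, which 2.82% of all genes tested passed and 1.4% passed with higher values in mutants, and the call was lost under several other ways of processing. Pou5f1 and Lin28a were not well above background in the sample on any of the 6 arrays. Nanog, Sall4, Utf1, Tdgf1 and Dppa4 were measured and did not pass the threshold.

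Because Lin28b rests on probes that differ in signal, its probes are shown here, with the position of each along its transcript as the files give it. All sequences are 60-base probes of the array, 5′ to 3′, in lower case. The probe at position 376 and the probes of Sall4, Utf1, Tdgf1 and Pou5f1 are printed whole, and of the other Lin28b probes only the first 30 bases.
Lin28b position 376: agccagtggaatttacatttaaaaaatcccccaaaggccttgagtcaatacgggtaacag
Lin28b position 4801, first 30 bases: agtgagacagtgacctatgactcattgttg
Lin28b position 2780, first 30 bases: gtggcattcaatgttaaatagatactcaga
Sall4 position 2666: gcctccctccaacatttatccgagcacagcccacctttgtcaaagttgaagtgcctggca
Utf1: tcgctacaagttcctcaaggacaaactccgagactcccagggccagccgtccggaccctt
Tdgf1: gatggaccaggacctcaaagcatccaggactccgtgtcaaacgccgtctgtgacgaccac
Pou5f1: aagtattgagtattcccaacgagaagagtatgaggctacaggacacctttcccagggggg
The file headers name the genome build as mm9, and all coordinates are of that build. The Lin28b probes lie on the minus strand of chromosome 10, at 45140412 to 45140471 (position 376), 45096968 to 45097027 (position 4801) and 45175317 to 45175376 (position 2780). The first and second of these are 43.4 kb apart, and the probe at position 2780, which belongs to a different transcript record, lies 34.9 kb upstream of the one at position 376. Whether a probe falls in coding sequence, a UTR or an intron is not given in the files.

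The arrays differed in depth and in makeup. The sample channel held 74.1% to 76.2% of probes well above background on mutant arrays, 73.1% and 74.9% on controls 1 and 2, and 62.6% on control 3. Control 3 had a median sample signal of 4.66 times the local background, against 11.3 to 12.4 times on the other arrays, and was the one array scanned on another day. Mutants 2 and 3 were close to identical, with a median absolute deviation between their log2 ratios (scaled as an SD) of 0.104, and so were controls 1 and 2, at 0.16, against 0.325 to 0.731 for all other pairs of arrays. Beyond calling them biological replicates, the labels do not say whether the arrays of each such pair came from separate animals, so every n of 3, SD and p-value that counts them as separate samples may rest on fewer animals. All mutants lay on 1 slide and the controls on the other 2 slides, so genotype cannot be told apart from slide. The squamous markers Krt5, Krt14 and Trp63 had sample signals well above background on all 6 arrays. Sox2 itself had a log2 ratio of 5.67, 5.83 and 5.95 on mutants 1 to 3, against 6.26, 6.09 and 6.38 on controls 1 to 3. The difference of -0.43 missed the threshold (adjusted p = 0.143 in limma). Whether RNA of the transgene holds the stretch that this probe reads is not stated in the labels.

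Detection was examined first, with the scanner software's flag for a spot well above background. The number of spots with that flag varied widely among the 13 probes. The probes of Utf1, Tdgf1 and Sall4 at position 2666, 3 in all, were well above background in both channels on all 6 arrays. At the other end, 5 probes were not well above background in the sample on any array: those of Pou5f1, Lin28a, Lin28b at position 376, Sall4 at position 4512 and Zfp42 at position 1404. Nanog was well above background in the sample on 1 of 3 mutant and 2 of 3 control arrays, and in the reference RNA on 3 of 3 mutant and 2 of 3 control arrays. Dppa4 had the flag in the sample on 3 of 3 mutant and 1 of 3 control arrays and in the reference RNA, a pool of 11 mouse cell lines, on all 6. A gene was tested if a probe had the flag in the sample on at least 3 of the 6 arrays, which held for 6 members: Nanog, Lin28b, Sall4, Utf1, Tdgf1 and Dppa4.

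**Figure D1:**
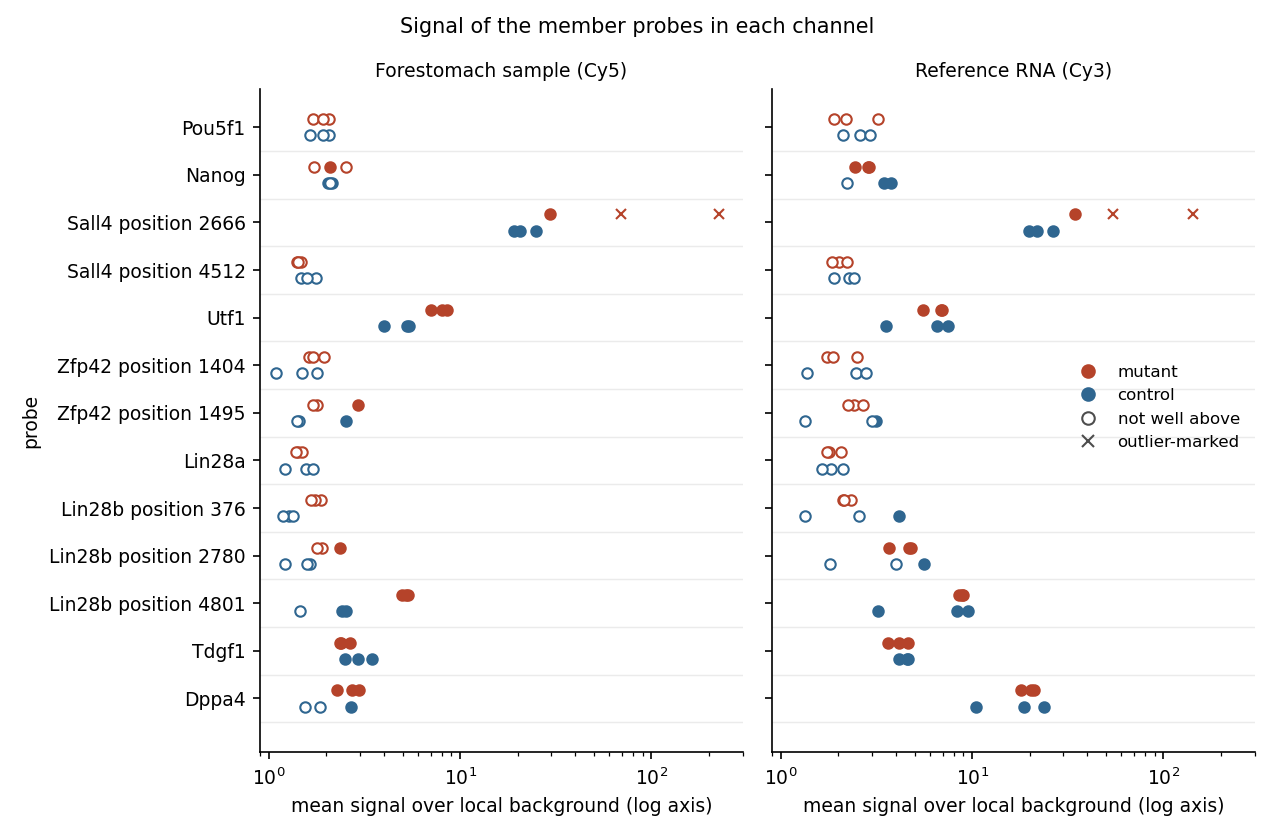
Mean signal over local background, on a log axis, of each of the 13 probes in the forestomach sample (left) and the reference RNA (right), 1 point per array, with mutants above controls. Filled points were well above background, hollow points were not, and crosses mark the 2 Sall4 spots that the software marked as outliers. The Pou5f1, Lin28a and Zfp42 position 1404 points are hollow in both channels on all arrays.

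Pou5f1 encodes OCT4, the POU-domain factor that partners SOX2 in pluripotent cells. Its raw sample signal was 64.5, 88.8 and 78.9 on mutants 1 to 3, against 71.0, 87.1 and 86.8 on controls 1 to 3. These signals overlapped between the groups and were 1.65 to 2.07 times the local background, and they exceeded 92.2% to 98.7% of the 153 negative control spots of their arrays. The reference RNA was not well above background at this probe either (chromosome 17, 35647280 to 35647340), so the ratio has no measured side and no fold is given. A transcript below this array's background would not have been detected.

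Nanog, the homeodomain factor of the inner cell mass, had log2 ratios of -0.25, 0.15 and -0.03 on mutants 1 to 3, against -0.15, -0.18 and 0.07 on controls 1 to 3. The groups overlapped throughout. Mutants averaged -0.04 ± 0.20 and controls -0.09 ± 0.14 (SD, n = 3 each), and the difference of 0.04 had a 95% interval of -0.32 to 0.41 (limma, adjusted p = 0.886). Its raw sample signals were 79.6, 100.1 and 108 on mutants 1 to 3 and 108, 96.1 and 81.5 on controls 1 to 3, close to the limit of detection on every array. The sign of the difference turned under 6 of 23 alternatives. The probe lies on chromosome 6, 122664091 to 122664150.

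Sall4, a zinc-finger repressor that works with POU5F1 and recruits the NuRD deacetylase complex, had 2 probes on chromosome 2 that gave unlike pictures. The probe at position 2666 (168578172 to 168578231) had raw sample signals of 1326, 2904 and 9439 on mutants 1 to 3, against 981, 808 and 790.5 on controls 1 to 3. The raw mutant signals were all above the control signals, but the reference RNA, the same pool on every array, was also high on the same spots, at 839, 1305 and 3415 on mutants 1 to 3 and 640, 526 and 698 on controls 1 to 3. Raw signals are not adjusted for the lower depth of control 3. After loess and Aquantile the log2 sample signal was 10.22 on mutant 1, against 9.84, 9.48 and 11.0 on controls 1 to 3. The software marked the spots on mutants 2 and 3 as outliers, so they were left out. The test therefore set 1 mutant array (log2 ratio 0.61) against 3 controls (0.70, 0.40 and 0.72), and the lone mutant was taken to vary like the controls. The difference was 0.01 with a 95% interval of -0.59 to 0.60 (limma, adjusted p = 0.988). With the marked spots kept, a choice made after seeing the data, the difference was 0.40 (adjusted p = 0.294). The probe at position 4512 (168574333 to 168574392) was not well above background in either channel on any array.

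Utf1 encodes a chromatin-associated factor of undifferentiated cells whose enhancer is a known target of SOX2 and POU5F1 in embryonic stem cells. On its probe (chromosome 7, 147130120 to 147130179) the log2 ratio was 0.63, 0.99 and 1.00 on mutants 1 to 3, against 0.30, 0.20 and 0.74 on controls 1 to 3. Mutants 2 and 3 lay above all controls, whereas mutant 1 lay below control 3. Mutants averaged 0.87 ± 0.21 and controls 0.41 ± 0.29 (SD, n = 3 each). The difference of 0.46 (1.37-fold, 95% interval -0.01 to 0.93) missed the threshold (adjusted p = 0.217 in limma). Raw sample signals did not overlap, with 320.4, 351 and 424 on mutants 1 to 3 and 214, 210.5 and 205 on controls 1 to 3, while the reference signals did, at 147 to 183 in mutants and 142 to 151 in controls. Raw signals are not adjusted for the lower depth of control 3. After loess and Aquantile the groups overlapped in the sample channel. Its log2 signal was 8.28, 8.31 and 8.51 on mutants 1 to 3, against 7.66, 7.66 and 8.63 on controls 1 to 3. Without control 3 and mutant 1, the difference was 0.75 (adjusted p = 0.00204 in limma). With arrays weighted by their spread about the group (mutant 1 at 0.174 and control 3 at 0.084) it was 0.73 (adjusted p = 0.000473). Under these settings 7725 and 8580 genes passed, beside 581 as reported, so a call of Utf1 there carries little weight. The first leaves only the near-identical pairs and the second gives them most of the weight. Their p-values thus largely measure spread within pairs that may not be separate animals. In the sample channel alone the Utf1 difference was 0.21 (adjusted p = 0.762), and over all 24 alternatives the adjusted p ran from 0.000473 to 0.762.

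Zfp42, or REX1, is a zinc-finger protein widely used as a marker of naive embryonic stem cells. Its 2 probes on chromosome 8 share 20 bases and so are not independent. The probe at position 1495 (44380667 to 44380726) was well above background in the sample on mutant 1 and on control 1 only, with raw signals of 105.4, 97.3 and 78.2 on mutants 1 to 3 and 97.8, 70.4 and 55.0 on controls 1 to 3. The probe at position 1404 (44380707 to 44380778) gave 79.8, 72.9 and 73.8 on mutants 1 to 3 and 71.4, 62.5 and 47.1 on controls 1 to 3, none of them well above background. Both probes fell short of the filter and were not tested with the other genes.

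**Figure D2:**
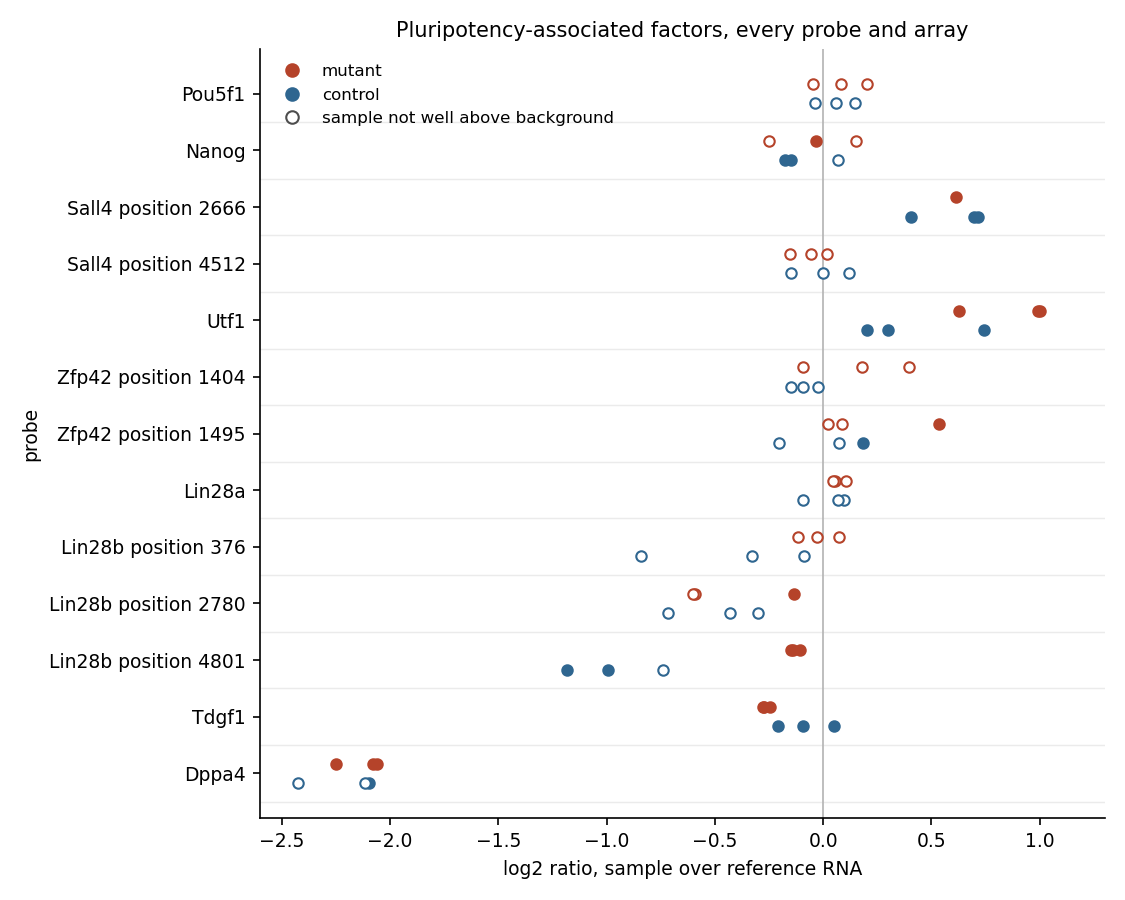
The log2 ratio of sample over reference RNA for all 13 probes, 1 point per array, with mutants above controls in each row. Filled points were well above background in the sample and hollow points were not, and the 2 Sall4 spots marked as outliers are not drawn. Lin28b at position 4801 and Tdgf1 are the tested members with 6 values whose groups do not overlap, as held for 37.9% of all genes, with mutants to the right of controls for Lin28b and to the left for Tdgf1.

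LIN28A and LIN28B are paralogous RNA-binding proteins that hold back let-7 microRNAs in early development, and both fall silent in most adult tissues. Lin28a, by its 1 probe (chromosome 4, 133559527 to 133559586), had raw sample signals of 59.8, 68.7 and 61.3 on mutants 1 to 3, against 51.2, 67.9 and 63.0 on controls 1 to 3. None of these, nor any reference signal, was well above background.

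Lin28b at position 4801 had raw sample signals of 243, 247.5 and 242 on mutants 1 to 3, against 119, 101 and 61.3 on controls 1 to 3. Every mutant lay above every control, and the spot was well above background in the sample on 3 of 3 mutant and 2 of 3 control arrays, with control 3 the exception. The reference RNA on the same spots was 248, 235 and 229 on mutants 1 to 3 and 225, 208 and 122 on controls 1 to 3, and it was well above background on all 6 arrays. Relative to it, the log2 ratio was -0.15, -0.11 and -0.14 on mutants 1 to 3, against -0.995, -1.18 and -0.74 on controls 1 to 3. Mutants averaged -0.13 ± 0.02 and controls -0.97 ± 0.22 (SD, n = 3 each), so most of the spread lay among the controls. The difference of 0.84 had a standard error of 0.14 and passed the threshold with an adjusted p of 0.0433 (limma, Benjamini-Hochberg over 20567 genes). An exact two-sided permutation test over the 6 arrays gave p = 0.1, the smallest that its 20 splits allow. In bulk tissue a gene that is higher in the cells that express it and a larger share of such cells cannot be told apart.

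The other Lin28b probes did not carry a test of their own. At position 376 the log2 ratio was 0.07, -0.11 and -0.03 on mutants 1 to 3, against -0.33, -0.84 and -0.09 on controls 1 to 3. Mutant 2 lay below control 3, so the groups overlapped. No sample spot there was well above background. At position 2780 the ratio was -0.14, -0.59 and -0.60 on mutants 1 to 3, against -0.72, -0.43 and -0.30 on controls 1 to 3, and the groups overlapped. That sample spot was well above background on mutant 1 alone. When each probe was tested on its own with no filter, 1 of the 13 member probes passed, the same probe at position 4801, against 2.21% of all probes.

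**Figure D3:**
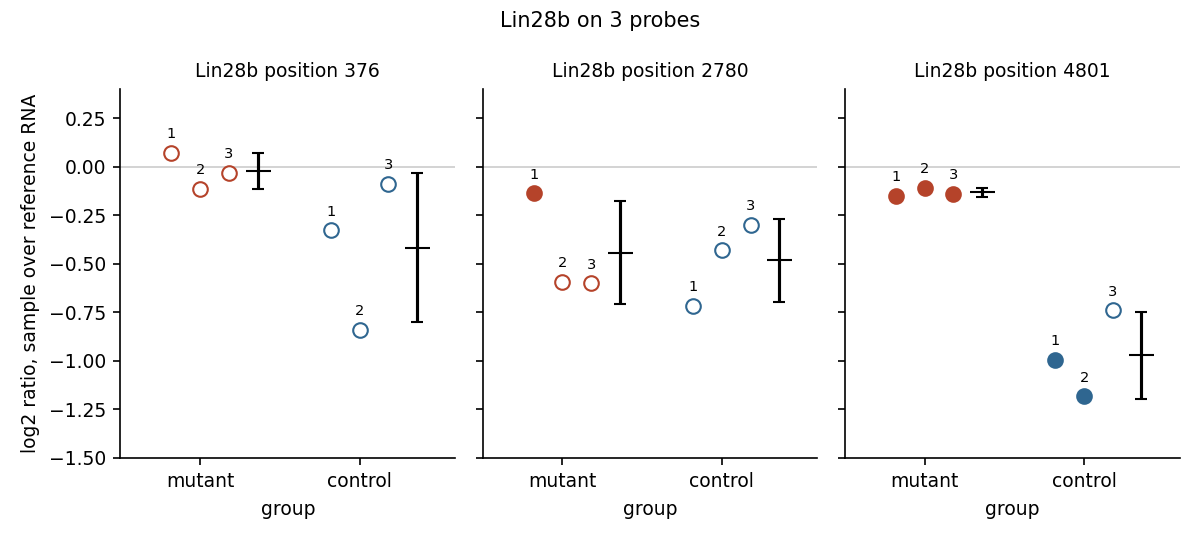
The log2 ratio of sample over reference RNA on the 3 Lin28b probes, 1 numbered point per array, mutants left and controls right, with the mean and SD beside each group. Filled points were well above background in the sample. At position 4801 the mutants sit between -0.15 and -0.11, above the controls at -1.18 to -0.74, whereas the groups overlap on the other probes.

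The Lin28b difference was positive under all 23 alternatives that could test it, from 0.73 to 2.04, and passed the threshold under 14 of them. These alternatives are not all separate checks. Those that changed only the filter or the choice of probe read the same single probe and gave 0.84 again. Scan day as a block gave the same fit as leaving out control 3, the only array of its day. Array weights rest mainly, and leaving out both control 3 and mutant 1 wholly, on the near-identical pairs. The Lin28b difference was larger by over 1.5 times with the software's processed signals (2.04, adjusted p = 0.0202) and in the authors' deposited table of log2 ratios (1.53, adjusted p = 0.0151). Slide as a random block ended the call (0.80, adjusted p = 0.507), as did averaging the near-identical pairs (0.78, adjusted p = 0.463) and centring each array on its median in place of loess (0.77, adjusted p = 0.095). The call was also lost without mutant 1 (adjusted p = 0.0739), mutant 2 (0.173), mutant 3 (0.178), control 1 (0.155) or control 2 (0.151), with differences of 0.73 to 0.85. Without control 3, whose spot was not well above background, the difference was 0.96 with an adjusted p of 0.0153.

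**Figure D4:**
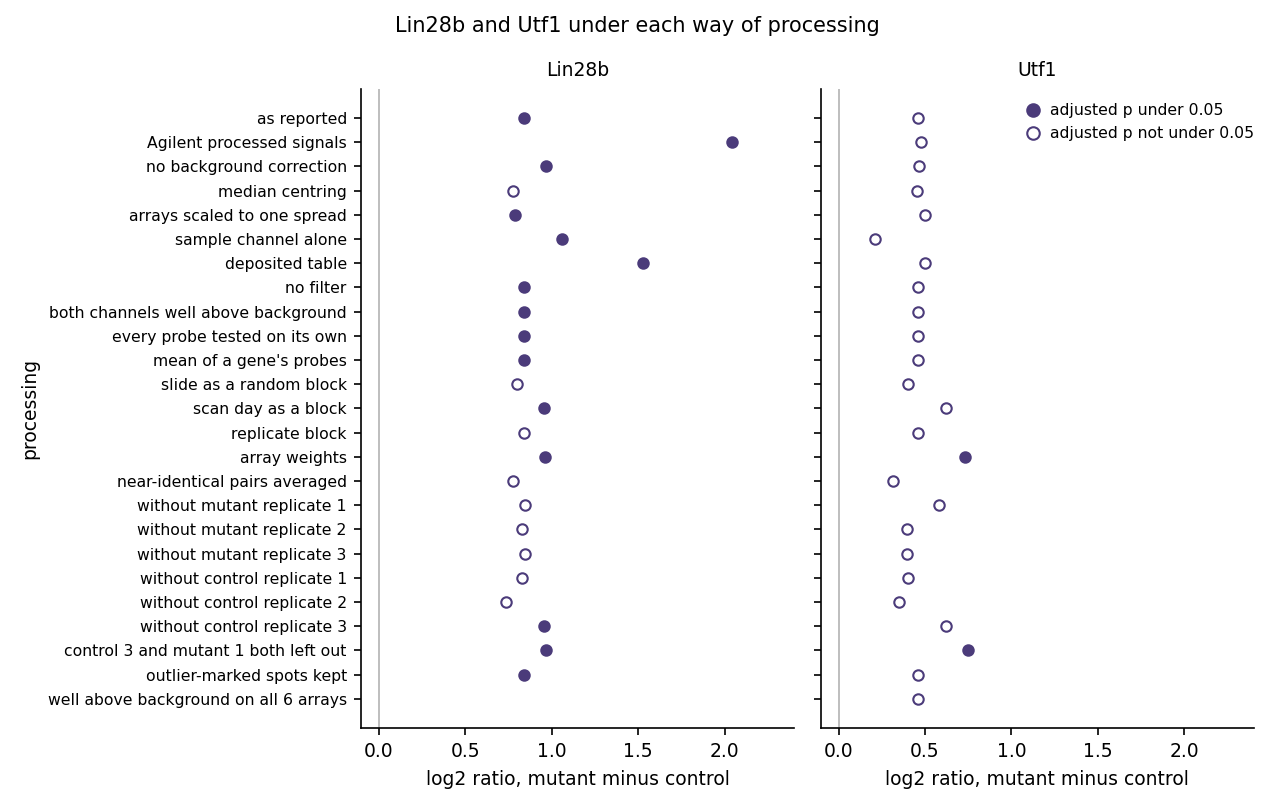
The mutant minus control log2 difference of Lin28b (left) and Utf1 (right) under each way of processing, with filled points where the adjusted p was under 0.05. Lin28b lies between 0.73 and 2.04 and Utf1 between 0.21 and 0.75, and all points of both genes lie above 0. Lin28b has no point where a spot had to be well above background on all 6 arrays.

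Among secreted and surface factors, Fgf4, the fibroblast growth factor that SOX2 and POU5F1 jointly activate in embryonic stem cells, was not analysed here for lack of a probe. Tdgf1 encodes Cripto, the membrane-anchored co-receptor through which NODAL signals. Its log2 ratio was -0.27, -0.28 and -0.24 on mutants 1 to 3, against -0.09, -0.21 and 0.05 on controls 1 to 3 (chromosome 9, 110843254 to 110843313). The mutants all lay below the controls, with mutant 3 and control 2 close together. Mutants averaged -0.27 ± 0.02 and controls -0.08 ± 0.13 (SD, n = 3 each), and the difference of -0.18 (95% interval -0.47 to 0.10) missed the threshold (adjusted p = 0.38 in limma). It was -0.50 with processed signals (adjusted p = 0.254) and -0.55 in the sample channel alone (adjusted p = 0.468), both beyond that interval. Its sample signals were 2.35 to 2.66 times background in mutants and 2.51 to 3.46 times in controls, which leaves little range for a fall to be seen.

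Dppa4, a nuclear protein of pluripotent cells and the germline that is thought to act on chromatin, was far lower in forestomach than in the reference RNA on all arrays. Its log2 ratio was -2.08, -2.25 and -2.06 on mutants 1 to 3, against -2.43, -2.10 and -2.12 on controls 1 to 3 (chromosome 16, 48293977 to 48294036). The groups overlapped. The difference of 0.08 had a 95% interval of -0.26 to 0.42 (limma, adjusted p = 0.747). It was 0.77 with the software's processed signals (adjusted p = 0.249) and 0.50 in the authors' deposited table (adjusted p = 0.324), both beyond that interval, and it was -0.11 with arrays scaled to one spread. It passed under none (0) of 23 alternatives. The raw reference signals, at 482 to 505.5 on mutant and 405 to 498 on control arrays, were well above background throughout, and the sample signals of 104 to 113 on mutant and 57.4 to 109 on control arrays were near the limit of detection.

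Taken over the members, 1 of 6 tested passed the threshold, and it was higher in mutants. Over all genes 581 of 20567 passed (2.82%), 287 of them higher in mutants (1.4%). With 6 members the count of 1 carries little weight against that background. The median difference of the 6 members was 0.06, beside 0.01 over all genes, and 5 of the 6 differences were positive, beside 50.5% of all genes. Of the 5 members with a value on every array, 2 had groups that did not overlap (Lin28b and Tdgf1), beside 37.9% of all genes, so this count is near the background.

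The wider networks of the members were followed with 6 further lists of genes, of which 75 genes were tested and 46 had a positive difference. Hdac1 alone among these 75 passed the threshold, and 17 had an unadjusted p under 0.05, beside 23.8% of all genes. None of 14 tested pluripotency transcription factors passed in limma (3 at an unadjusted p under 0.05), with a list median of 0.02. This list held Sox2 as well as Klf4, a factor of both naive stem cells and squamous differentiation, with ratios of 3.57, 3.90 and 3.79 on mutants 1 to 3, against 4.27, 4.33 and 4.92 on controls 1 to 3 (difference -0.75, adjusted p = 0.11). None of 12 tested stem cell and germline markers passed (4 at an unadjusted p under 0.05, median 0.04). The smallest p-values in that list were those of Nr6a1, the nuclear receptor GCNF that silences Pou5f1 in differentiating cells (difference -0.59, adjusted p = 0.0581), and Ddx4, the germline RNA helicase VASA (-0.61, adjusted p = 0.0715). Both had all mutants below all controls. Groups did not overlap for 6 of the 12 genes of this list, beside 37.9% of all genes, and 6 differences were positive and 6 negative. Ddx4 was well above background in the sample on only 2 of 3 arrays of each group.

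LIN28 proteins are known to act through let-7, whose targets include growth and cell cycle genes. None of the 14 tested genes of the LIN28 and let-7 list passed (4 at an unadjusted p under 0.05), and its median was 0.12 with 10 positive differences. Hmga2, a chromatin protein and classical let-7 target, had ratios of -3.38, -2.91 and -2.76 on mutants 1 to 3, against -3.41, -3.60 and -4.23 on controls 1 to 3. Its difference of 0.73 did not pass (adjusted p = 0.175), and its other 2 probes gave -0.04 and -0.21. Ccnd2, cyclin D2, ran the other way, with a difference of -0.57 (adjusted p = 0.124). The let-7 microRNAs themselves are not measured by these probes.

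Neither signalling list moved past the threshold. Among 11 tested genes of the Cripto and Nodal list (3 at an unadjusted p under 0.05, median -0.05), the signal transducers Smad2 and Smad4 had differences of 0.55 (adjusted p = 0.0897) and 0.61 (adjusted p = 0.128). Nodal itself had a difference of -0.05 (adjusted p = 0.863). Among 10 tested FGF receptors and ERK targets (0 at an unadjusted p under 0.05, median 0.08), the 2 smallest p-values were those of the receptors Fgfr2, with a difference of -0.45 (adjusted p = 0.232), and Fgfr4, with 0.62 (adjusted p = 0.292). The other 2 Fgfr4 probes gave -0.001 and 0.02.

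The list of SALL proteins and NuRD subunits held the 1 further call. Hdac1, the histone deacetylase of the NuRD complex among others, had log2 ratios of 0.09, 0.43 and 0.38 on mutants 1 to 3, against -0.97, -0.73 and -0.98 on controls 1 to 3. Every mutant lay above every control, and groups did not overlap for 6 of the 14 genes of this list, beside 37.9% of all genes. Mutants averaged 0.30 ± 0.18 and controls -0.89 ± 0.14 (SD, n = 3 each), a difference of 1.19 or 2.28-fold (limma, adjusted p = 0.0196). The other 13 genes of the list did not pass, and its median was 0.12. The Hdac1 call was lost with slide as a random block (1.21, adjusted p = 0.38), with the near-identical pairs averaged (1.16, adjusted p = 0.444), with median centring (1.37, adjusted p = 0.0661) and in the sample channel alone (1.21, adjusted p = 0.0509). It was also lost without mutant 2 (adjusted p = 0.116), mutant 3 (0.114), control 1 (0.103) or control 2 (0.0768), at differences of 1.13 to 1.27.

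**Figure D5:**
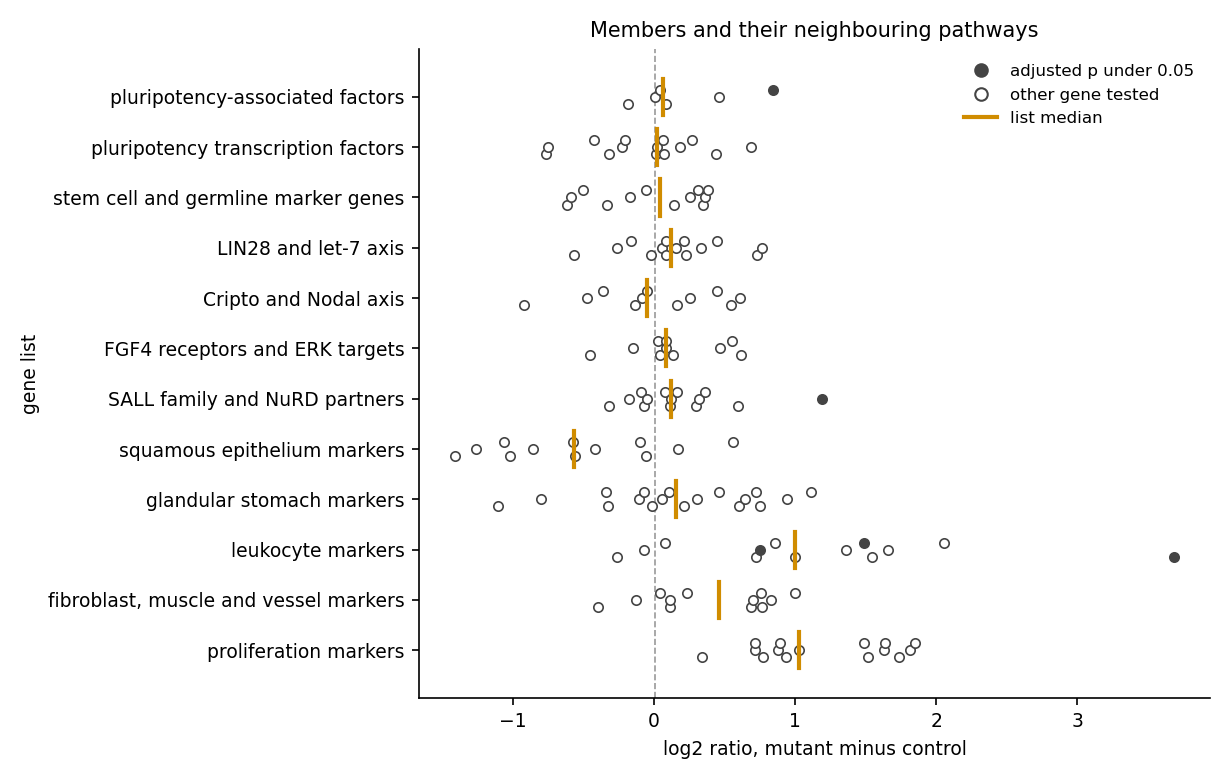
The mutant minus control log2 difference of each gene tested in the list of pluripotency-associated factors and in 11 further lists, 1 point per gene, filled where the adjusted p was under 0.05, with a bar at each list median and a dashed line at the median of all genes (0.01). The medians of the factors and the 6 related lists lie between -0.05 and 0.12, whereas the leukocyte and proliferation lists have medians of 1.00 and 1.03.

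Markers of other cell types also differed between the genotypes on these arrays. Differences ran in both directions among the 13 tested leukocyte markers, 11 positive and 2 negative, and the list median was 1.00. The negative ones were H2-Ab1 (-0.26, adjusted p = 0.23 in limma), with every mutant below every control, and H2-Aa (-0.07, adjusted p = 0.837). Cd3e differed little, at 0.08 (adjusted p = 0.717). No marker passed the threshold with lower values in mutants. Against a share of 1.4% of all genes tested, 3 of these markers passed it with higher values in mutants. They were Retnlg, a neutrophil gene (log2 difference 3.69, 95% interval 2.99 to 4.38, adjusted p = 0.00598), Cd68 of macrophages (2.81-fold, adjusted p = 0.0166) and Csf1r, the macrophage growth factor receptor (1.68-fold, adjusted p = 0.0488). Retnlg was well above background in the sample on no control array (0 of 3), and its sample signal alone was at least 28.9-fold higher in mutants, but in that channel the gene did not pass (adjusted p = 0.0732), nor with processed signals (0.0524). It met the filter only through the mutant arrays, as did Ngp and Csf3r (each 3 of 3 mutant and 0 of 3 control arrays). The count of 3 thus includes a gene, and the list median of 1.00 several genes, admitted only by being bright in mutants. The other 2 Csf1r probes had differences of 0.04 (adjusted p = 0.88) and 0.56 (adjusted p = 0.0788), and the mean of its probes, at 0.45, did not pass (adjusted p = 0.0813). All 3 calls were lost with slide as a random block (adjusted p = 0.154 for Retnlg, 0.308 for Cd68 and 0.579 for Csf1r) and with the near-identical pairs averaged. Cd68 also lost its call without mutant 2 (0.102), mutant 3 (0.104), control 1 (0.083) or control 2 (0.0917), and Csf1r without any one array other than control 3 (0.0684 to 0.18). Over all alternatives Retnlg passed under 19 of 23, Cd68 under 17 of 24 and Csf1r under 9 of 24. The median log2 ratio of the leukocyte list ran from 0.78 to 1.59 on mutant arrays and from -0.15 to 0.01 on control arrays. All 15 proliferation markers had a positive difference and none passed in limma (13 at an unadjusted p under 0.05). Their median difference was 1.03, and their list median ran from -1.32 to -0.89 on mutant arrays and from -2.97 to -1.95 on control arrays. Cdc20 and Cdk1, regulators of mitosis, had differences of 1.51 (adjusted p = 0.0626) and 0.72 (adjusted p = 0.0669). A second Cdk1 probe had a difference of 0.08 (adjusted p = 0.822).

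Of 12 squamous markers none passed in limma (5 at an unadjusted p under 0.05), with a median of -0.57. The difference was negative for 10 of them. It was positive for 2, Krt6a (0.56, adjusted p = 0.659) and Dsc3 (0.17, adjusted p = 0.609). The list median of all 12 ran from 2.83 to 3.18 on mutant arrays and from 3.56 to 4.27 on control arrays. Krt5 and Krt14, the basal keratins, had differences of -0.42 and -0.58, with the sign turned to 0.30 and 0.93 in the sample channel alone. Trp63, the master regulator of stratified epithelia, had -0.10, with positive values of 0.00452 to 0.52 under 3 alternatives, and its other 2 probes gave 0.06 and 0.01. Involucrin (Ivl), of suprabasal cells, had -1.26 (adjusted p = 0.0614) and Krt15 -0.56 (adjusted p = 0.0839).

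None of 18 markers of the glandular stomach passed in limma (1 at an unadjusted p under 0.05). They had 11 positive and 7 negative differences, from -1.11 to 1.11, with a median difference of 0.16. Their list median was 1.67, 3.83 and 3.41 on mutants 1 to 3, against 4.07, 3.85 and 0.40 on controls 1 to 3. Control 3 was thus lowest, and mutant 1 was also well below the remaining arrays. The 2 smallest p-values of the list, both with lower values in mutants, were those of Slc26a9 and Aqp4. Slc26a9, an anion transporter, had a difference of -0.80 (adjusted p = 0.137) and the water channel Aqp4 one of -0.34 (adjusted p = 0.453). None of 12 fibroblast, muscle and vessel markers passed (0 at an unadjusted p under 0.05), with a median of 0.46. The collagen gene Col1a2 had a difference of 0.83 (adjusted p = 0.25), against -0.57 from a second probe that did not pass the filter, and Myh11, the smooth muscle myosin, one of -0.40 (adjusted p = 0.246). The part of leukocytes, proliferating cells or glandular tissue in the Lin28b and Hdac1 differences was not tested. Without control 3 the Lin28b and Hdac1 differences were 0.96 and 1.15, and without both control 3 and mutant 1 they were 0.97 and 1.25.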

How the data were processed

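Agilent mouse arrays measured forestomach RNA (Cy5) against Universal Mouse Reference RNA (Cy3) with no dye swap, per the labels. Mean signal and local background intensity values of each spot were deposited by the authors as Agilent Feature Extraction wrote them, version 10.5.1.1, and 10.7.3.1 for control 3, per the file headers. The submitters' processing notes name version 9.1. The log2 ratios of the authors' deposited table served as an alternative. Set against the scanner files they ran as sample over reference on a log2 scale, slopes being 1.11 to 1.17 and medians per column 0.026 to 0.06, and their centring stays unknown. The table's columns for mutants 1 and 3 matched each other's scanner file best (r = 0.973 and 0.969, against 0.886 and 0.881 with their own). Numbers of single arrays are those of the scanner files.

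In limma 3.58.1 under R 4.3.3, background was corrected by normexp with an offset of 50 and dyes were balanced by loess within arrays. Control spots and spots marked as outliers had no weight and were left out, and spots of a probe were averaged. Folds and differences are mutant over or minus control. A gene was tested if it had a probe well above background in the sample on at least 3 of 6 arrays. Of such probes, the one with the highest mean sample intensity was read. Of all probes, 79.5% were named through the RefSeq table of assembly GRCm38.p6, 272 had no name and the rest kept the files' name. Groups were compared with lmFit and eBayes, two-sided, with Benjamini-Hochberg adjustment over 20567 genes and a threshold of 0.05. The number of arrays limits precision, with 4 residual degrees of freedom, and the p-values reflect only how far these samples differ, which may in part be technical. Where a probe was below background throughout one group, the bound in the text compares mean log2 sample signals after loess and Aquantile, with each array of that group set to the dimmest probe flagged above background if the probe itself was lower. The code was tested on simulated data.

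Same-numbered mutants and controls correlated at 0.00482, 0.0195 and 0.126 in their deviations from the group means, so the numbers were not taken as pairs. The members and the gene lists were chosen with earlier results of these data known. The named genes are all member probes, Sox2, up to 4 called genes of each list or its 2 with the smallest p, and Krt5, Krt14 and Trp63. Nodal was named in addition after its values were seen. Alternatives concerned background correction, normalization, the filter, the choice of probe, slide, scan day, array weights, near-identical arrays and each array left out. The alternative that keeps marked spots was added after seeing the data.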

Additional observations from a re-analysis of the deposited data

Results flagged for a closer look

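The 2 Sall4 spots left out for being marked as outliers carried raw signal, not adjusted for depth, above that of every control array. At position 2666 the raw sample signal was 2904 on mutant 2 and 9439 on mutant 3, against 790.5 to 981 on the 3 controls. The reference signal of these spots, 1305 and 3415, was also above the 526 to 698 of the controls. Their cause was not tested.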

How the results depend on the processing

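The count of 581 genes was 326 with processed signals, 265 with median centring, 303 in the sample channel alone, 4 with slide as a random block, 1483 with scan day as a block, 8580 with array weights, 0 in limma with the near-identical pairs averaged (2194 at an unadjusted p under 0.05), and 7725 without control 3 and mutant 1. Leaving out 1 array gave 34 to 1483 genes, with 1483 without control 3. Because control 3 was the only array of its scan day, scan day as a block and leaving out control 3 are the same fit. The replicate block gave 137 genes, no member (0) and no gene of the 6 related lists (0), against 2 members and 15 list genes at an unadjusted p under 0.05, with Lin28b at an adjusted p of 0.098. The 1 member called became 0 with median centring, slide, averaged pairs and a filter on all 6 arrays, under which 3 members were tested. At an unadjusted p under 0.05 these alternatives had 2, 1, 1 and 0 members. It became 2, with Utf1, under array weights and without control 3 and mutant 1, where 8580 and 7725 genes passed. Both of these settings rest mainly or wholly on the near-identical pairs. Leaving out 1 array gave 0 to 1 member. The 1 called gene of the 6 related lists became 0 with median centring, the sample channel, slide and averaged pairs (14, 16, 5 and 5 at an unadjusted p under 0.05), 2 with arrays scaled to one spread and with the mean of a gene's probes, 5 with scan day, 30 with array weights and 28 without control 3 and mutant 1, and leaving out 1 array gave 0 to 5. The cause of these shifts was not tested, other than that averaging or leaving out leaves fewer arrays. Signs turned for Nanog with processed signals (-0.0795), no background correction (-0.0525), the sample channel (-0.16) and averaged pairs (-0.049), and when leaving out 1 array (-0.0559 to 0.145), without mutant 2 or control 2. They turned for Sall4 with processed signals (-0.022), slide (-0.0113), the replicate block (-0.0832) and averaged pairs (-0.0206), and when leaving out control 2 (range -0.0934 to 0.0625). Dppa4 turned with scaled arrays (-0.11) and without control 1 (range -0.0245 to 0.143). Sox2 turned with scaled arrays (0.10), Krt5 (0.30) and Krt14 (0.93) in the sample channel, and Trp63 with median centring (0.00452), scaled arrays (0.52) and the sample channel (0.20). Lin28b and Utf1 kept a positive and Tdgf1 a negative difference under all alternatives that tested them. Low signal over background limits what Pou5f1, Lin28a, Zfp42 and Nanog can show.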
